A study of Mus musculus with 24 samples.

Results

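The AP-1 and immediate early genes described here are 10 listed genes of the 56422 gene names in a table of transcript abundance from 24 mouse samples of peritoneal metastasis: Jun, Junb, Jund, Fos, Fosb, Fosl1, Fosl2, Atf3, Egr1 and Ier2. They were chosen by name, with Jun as the starting point because it had been lower with propionate than in control. The contrast of propionate with control is therefore described without a test, and so is Jun wherever propionate or control libraries enter. Of the 10 genes, 9 reached 1 TPM (transcript abundance scaled to a common library total) in at least 6 libraries and were tested among 15163 genes, while Fosl1 did not.

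The 24 libraries came from peritoneum and formed 4 groups of 6: treated with propionate, treated with butyrate, treated with both acids (combination), and untreated (control). The title of the series links them to mannose, anti-PD-1 therapy of ovarian cancer and metabolites of gut microbes. Strain, age, sex, tumour line, dose, route, duration and any anti-PD-1 treatment are not stated in the labels, nor whether the 6 samples of a group were separate animals. The p-values therefore cover sample-to-sample spread only, some of which may be technical. Propionate and butyrate differ in the length of their carbon chain, that of butyrate being a single carbon longer.

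AP-1 is a family of transcription factors that bind DNA as pairs of basic leucine zipper proteins. Jun proteins pair with each other, with Fos proteins or with ATF proteins such as Atf3, whereas Fos proteins need a partner of another kind. Several of the genes belong to the immediate early genes, which cells transcribe within minutes of a growth factor, stress or mechanical stimulus without first making new protein. Kinases of the MAPK cascades drive this response, and Egr1, a zinc finger factor, and Ier2 are induced in the same wave.

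Promoters of the 3 members whose levels are contrasted below are shown to place the elements by which such genes are known to be regulated. The 250 bases before the RefSeq start are given on the strand of the gene, from a table of build GRCm38.p6 that was matched by symbol and held 7 of the 10 members. Capitals mark matches to the motifs searched. Jun lies at chr4:95052223-95052472 (minus strand), Fos at chr12:85473640-85473889 (plus strand) and Atf3 at chr1:191183334-191183583 (minus strand).
Jun: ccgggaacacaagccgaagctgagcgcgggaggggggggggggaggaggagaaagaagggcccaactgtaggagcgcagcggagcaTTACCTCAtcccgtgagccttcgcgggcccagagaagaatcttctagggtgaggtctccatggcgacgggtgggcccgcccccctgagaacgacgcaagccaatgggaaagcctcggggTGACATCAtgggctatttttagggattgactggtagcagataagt
Fos: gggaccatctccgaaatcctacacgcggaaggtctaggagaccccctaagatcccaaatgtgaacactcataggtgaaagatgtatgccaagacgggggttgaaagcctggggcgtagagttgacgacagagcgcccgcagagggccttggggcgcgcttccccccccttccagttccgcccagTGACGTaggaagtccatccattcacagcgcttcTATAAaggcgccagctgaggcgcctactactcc
Atf3: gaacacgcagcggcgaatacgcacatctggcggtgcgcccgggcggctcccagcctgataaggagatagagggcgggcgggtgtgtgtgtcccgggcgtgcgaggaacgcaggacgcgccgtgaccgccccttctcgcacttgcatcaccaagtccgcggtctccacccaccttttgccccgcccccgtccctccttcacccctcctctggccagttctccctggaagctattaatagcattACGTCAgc

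In the Jun window the capitals are TTACCTCA and TGACATCA, the distal and proximal sites through which Jun and ATF dimers are known to act on Jun itself. They start 164 and 45 bases before the start. TTACCTCA was in 0.728% and TGACATCA in 2.93% of 32851 promoter windows of this length, searched on both strands. The Fos window holds TGACGT, the core of the cyclic AMP response element, 66 bases before the start, and TATAA 33 bases before it. The Atf3 window holds the same core on the other strand, printed as ACGTCA, 8 bases before the start. This core was in 6.47% of windows on both strands and TATAA in 16.0% on the strand of the gene. The AP-1 site TGANTCA (6.75% of windows), the full element TGACGTCA (1.55%), which contains the core, and the CArG box (1.47%) matched none of the 7 member windows on either strand. The windows end at the RefSeq start and show nothing beyond these 250 bases.

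Jun, the most studied Jun protein gene, is listed on a pair of transcript rows that hold identical values in all 24 libraries. The table has 123 gene names with such identical rows. Summed as for the other genes, Jun averaged 32.4 TPM over the 24 libraries, and counted once 16.2 TPM. On the summed scale it ranged from 20.7 to 34.1 TPM with propionate (median 27.9), from 20.7 to 39.2 with butyrate (median 23.1), from 16.4 to 43.4 in the combination group (median 28.4) and from 31.6 to 70.6 in control (median 44.0). Each treated group overlapped control, but only in a few libraries. Of the 36 pairs of a treated with a control library, the treated library was higher in 2 for propionate, 1 for butyrate and 4 for the combination.

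Jund encodes a Jun protein that is known for steady expression and for restraining growth in fibroblasts, and it had the highest mean of the members, at 44.1 TPM. It ranged from 14.2 to 88.6 TPM with propionate (median 21.96), from 14.1 to 42.9 with butyrate (median 23.3), from 24.3 to 58.9 in the combination group (median 42.2) and from 24.3 to 104 in control (median 77.9). Propionate replicates 3 and 4 stood at 88.6 and 67.5 TPM, and the other 4 propionate libraries at 23.7 or less. Control replicate 3, at 24.3 TPM, was the one control library at the level of the low treated libraries.

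Junb, whose protein often counters Jun in cell division, ranged from 5.05 to 27.6 TPM with propionate (median 7.30), from 4.28 to 20.3 with butyrate (median 10.3), from 6.70 to 37.2 in the combination group (median 20.2) and from 7.49 to 24.1 in control (median 19.1). The combination group thus held both a low and the highest library, and its median lay near that of control. The highest value came from combination replicate 5, a library with 21.2 TPM in all of 12 skeletal muscle markers and 592 TPM of 6 T cell markers.

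Fos, the partner that forms the classical AP-1 dimer with Jun, ranged from 2.86 to 19.5 TPM with propionate (median 5.98), from 2.84 to 14.7 with butyrate (median 4.77), from 4.98 to 21.5 in the combination group (median 9.94) and from 8.25 to 95.2 in control (median 14.9). The mean of control, 27.0 ± 33.5 TPM (SD, n = 6), rested on control replicate 5 at 95.2 TPM. Without that library the other 5 control libraries averaged 13.3 TPM.

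Fosl2, also known as Fra-2, encodes a Fos-family protein without the strong activation domain of Fos. It ranged from 2.87 to 27.4 TPM with propionate (median 5.27), from 3.44 to 14.3 with butyrate (median 6.02), from 4.69 to 19.5 in the combination group (median 7.60) and from 4.74 to 33.1 in control (median 24.9). As for Jund, propionate replicates 3 and 4 were high, at 27.4 and 20.8 TPM, and control replicate 3 was the lowest control library, at 4.74 TPM.

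Fosb was low, at 0.16 to 5.07 TPM over all libraries. Its medians were 0.565 TPM with propionate, 0.380 with butyrate, 0.800 in the combination group and 3.18 in control. Of 7 Fosb transcript rows, the most abundant held 52.2% of its TPM. Fosl1 (Fra-1), a Fos-family gene often raised in invasive carcinoma cells, was listed at 0 in 10 of 24 libraries. It reached 1 TPM in combination replicate 2 alone, at 2.19 TPM, and was not tested.

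Atf3 encodes an ATF protein induced by many cell stresses, and most of its libraries were low with a few far above. It ranged from 3.89 to 36.9 TPM with propionate (median 6.48), from 3.85 to 96.6 with butyrate (median 6.51), from 5.47 to 20.9 in the combination group (median 8.37) and from 6.73 to 69.3 in control (median 8.01). Medians of the 4 groups lay close together, and the spread came from butyrate replicate 6, control replicates 3 and 5 and propionate replicate 4. The table holds 3 Atf3 transcript rows without transcript identifiers. The most abundant took 81.6% of Atf3 in butyrate replicate 6 and 81.2% in control replicate 3. In control replicate 5 and propionate replicate 4 it took 32.4 and 34.9%, and the second row held most of the rest.

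**Figure D1:**
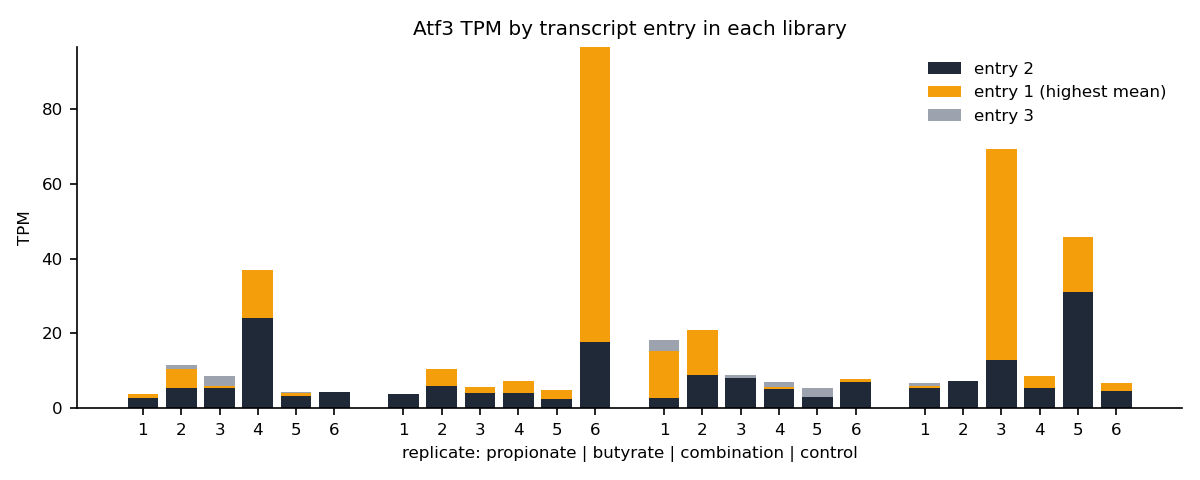
TPM of Atf3 in each of the 24 libraries, stacked by the 3 transcript rows of the table, numbered by mean TPM (entry 1 has the highest). Bars run by group, propionate, butyrate, combination and control, with the replicate number under each. Butyrate replicate 6 reached 96.6 TPM and control replicate 3 reached 69.3 TPM, both mostly from entry 1.

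Egr1, which activates growth factor and matrix genes, ranged from 2.56 to 17.6 TPM with propionate (median 3.68), from 1.92 to 14.5 with butyrate (median 6.07), from 3.16 to 19.9 in the combination group (median 11.2) and from 3.62 to 29.9 in control (median 13.3). Ier2, a small nuclear protein gene named for its immediate early induction, ranged from 4.59 to 16.4 TPM with propionate (median 6.51), from 4.26 to 13.9 with butyrate (median 8.60), from 6.81 to 30.9 in the combination group (median 15.0) and from 8.0 to 19.7 in control (median 15.2). For both genes the medians of the combination group and control lay together above those of the groups given a single acid, and all groups overlapped.

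**Figure D2:**
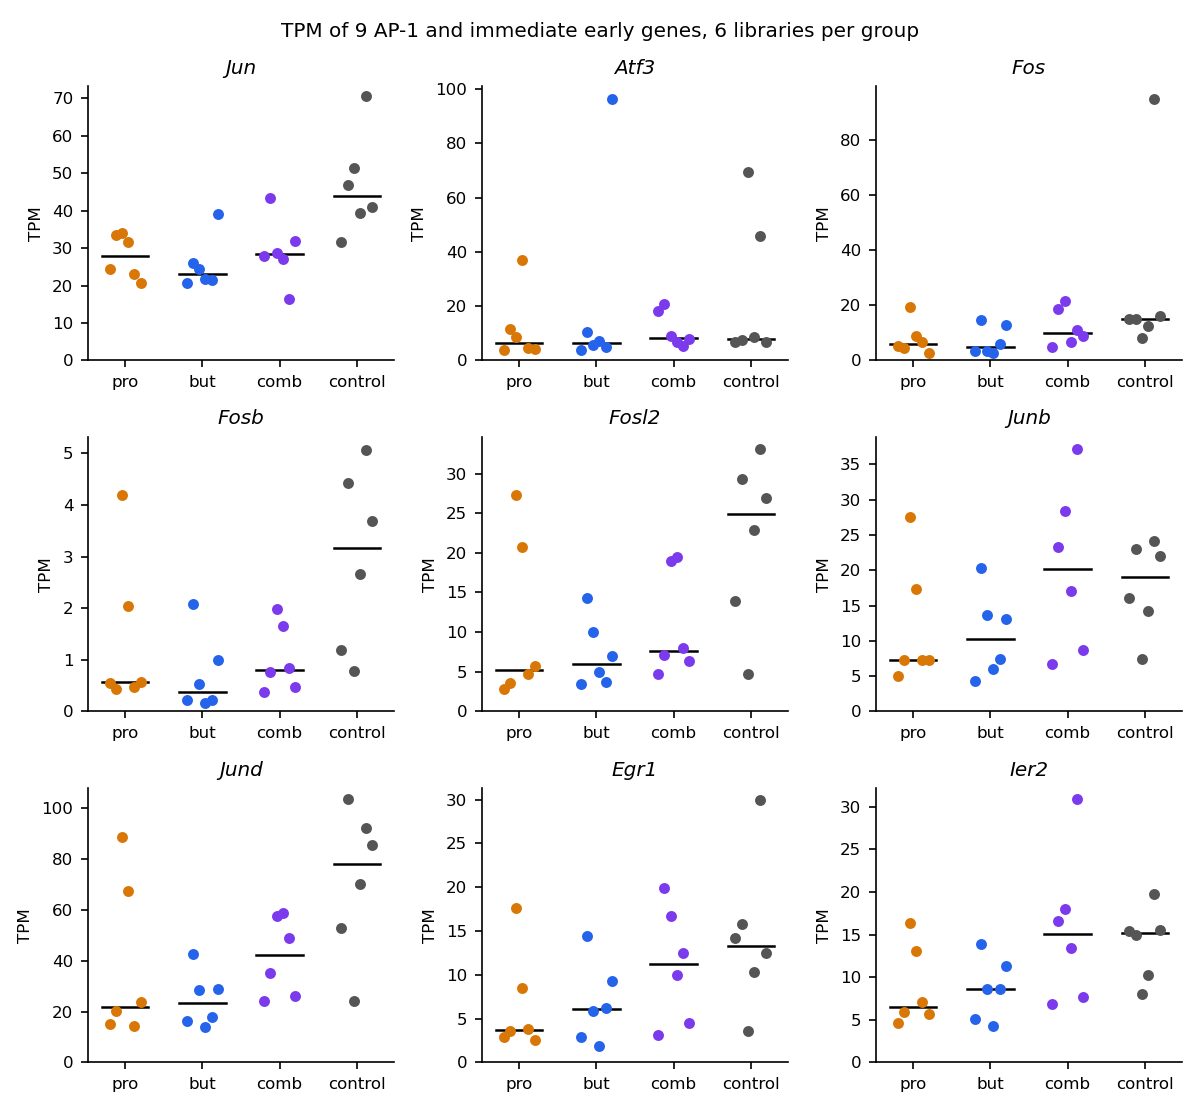
TPM of the 9 tested members in each library, with 6 points per group for propionate (pro), butyrate (but), combination (comb) and control and a line at the median. Jun is summed over its identical rows. Jun in control had a median of 44.0 TPM against 23.1 to 28.4 TPM in the treated groups, whereas Atf3 had medians of 6.48 to 8.37 TPM in all groups with single high libraries.

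Within groups, the members did not all move together. On deviations of log2(TPM + 1) from the group mean over the 24 libraries, Junb and Ier2 had a Spearman rho of 0.94, Egr1 and Ier2 of 0.94, Jund and Fosl2 of 0.93 and Jund and Fosb of 0.92. Fos ran with Egr1 (rho 0.87) and Ier2 (0.83) more closely than with Fosl2 (0.54). Jun and Atf3 had a rho of 0.81 with each other and lower values with the other members, 0.26 to 0.43 for Jun and 0.13 to 0.28 for Atf3. Among 15162 genes ordered by rho to Jun, those other members still ran from rank 576 (Fos) to rank 3537 (Junb). Ordered by rho to Fos, Fosl2 held rank 3157, Jun 7577 and Atf3 10139. These are descriptions over 24 libraries that share tissue makeup as well as group, with no test.

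**Figure D3:**
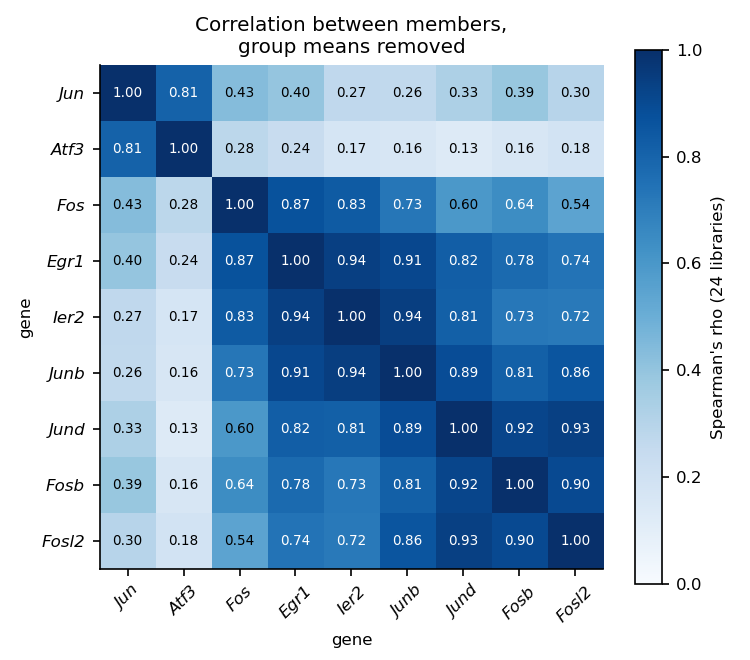
Spearman's rho between the 9 tested members on deviations of log2(TPM + 1) from the group mean, over 24 libraries. Darker squares are higher: Jun and Atf3 form a pair at 0.81, and the other 7 genes form a block with values of 0.54 to 0.94.

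Against markers of the tissue the members differed as well. Mesothelium markers were 8 genes listed for the lining of the abdominal cavity. They summed to 24.0 to 930 TPM with propionate (median 53.2) and 11.8 to 405 with butyrate (median 108). In the combination group the sum was 16.9 to 666 (median 226) and in control 12.4 to 1140 (median 665). In the propionate, butyrate and control groups, the libraries lowest and highest in this sum were also lowest and highest in epithelial and carcinoma markers. In the combination group the lowest library was shared and the highest was not. These sums therefore cannot tell lining from tumour. Fosl2 and Jund followed the mesothelium sum, with rho of 0.95 and 0.92, Junb with 0.90 and Fosb with 0.83. Ier2 and Egr1 had 0.76 and 0.75, and Fos 0.53. Jun and Atf3 had rho of 0.18 and 0.09 with it. The median over all 15163 tested genes was 0.77, and Jun, Atf3, Fos, Egr1 and Ier2 were below that median. Other marker lists ran with the same members: Jund and Fosl2 had rho of 0.95 and 0.96 with exocrine pancreas markers, Fosl2 0.92 with macrophage markers, Junb 0.94 and Ier2 0.82 with epithelial and carcinoma markers, and Fosb 0.89 with exocrine pancreas markers. The exocrine pancreas markers were low, at 0.45 to 40.1 TPM in sum, and 2 of the 5 reached the filter for testing. Jund and Fosl2 also had 0.93 each with epithelial and carcinoma markers. With T cell markers Junb, Jund and Fosl2 had 0.89, 0.83 and 0.86, so these values do not single out a cell type. With skeletal muscle markers the same genes had -0.63, -0.54 and -0.50 (median of all genes -0.52), and with adipocyte markers -0.45, -0.68 and -0.69. For lists other than mesothelium and skeletal muscle the median rho of all genes was not computed. In bulk samples fewer cells of a type and less RNA per cell cannot be told apart.

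**Figure D4:**
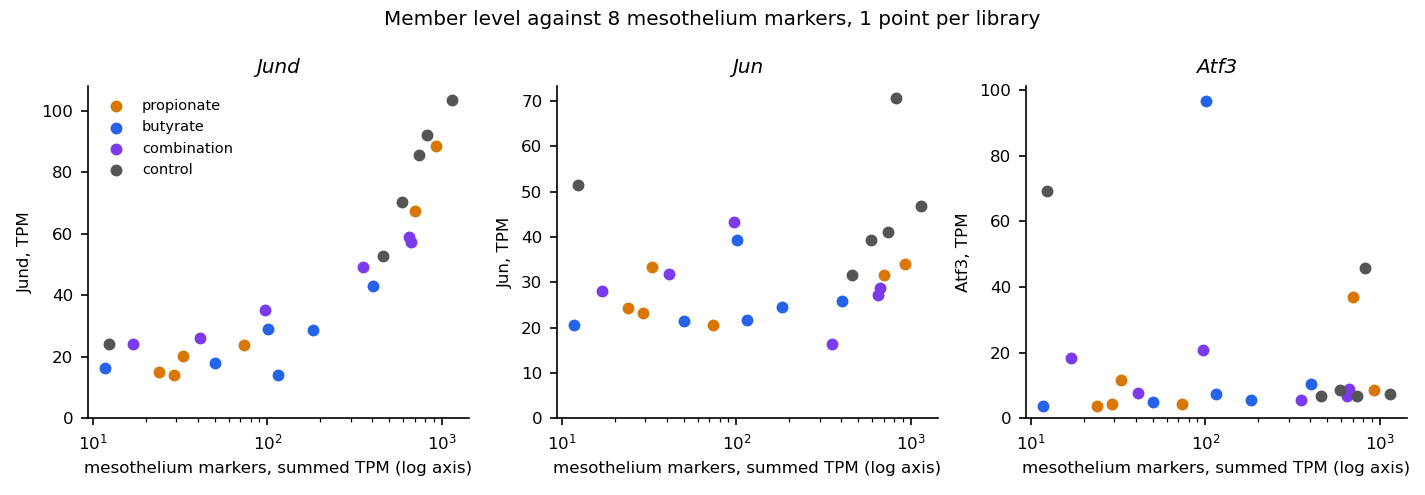
TPM of Jund, Jun and Atf3 in each library (vertical axis) against the summed TPM of 8 mesothelium markers (horizontal log axis), with colour for the group. Jund was higher at higher sums, up to 104 TPM in control replicate 2, where the sum was 1140 TPM. Jun in control replicate 3 was 51.4 TPM at a sum of 12.4 TPM.

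The tissue label is peritoneum, but mesothelium markers were low in several libraries of each treated group and in control replicate 3, while skeletal muscle markers were abundant in 23 of the 24. Other markers differed between the libraries as well, and their part in the results below was not tested. Skeletal muscle markers, 12 genes, summed to 27465 to 140146 TPM with propionate, 69648 to 109105 with butyrate, 21.2 to 117458 in the combination group and 27669 to 109350 in control. Epithelial and carcinoma markers, 7 genes, reached at most 434, 195, 474 and 512 TPM in the propionate, butyrate, combination and control groups, and each group also held a library at 5.73 TPM or less. T cell markers summed to at most 39.6, 15.8, 592 and 21.3 TPM in the same order. Across the libraries, 12618 to 15418 genes were at 1 TPM or more. Depth is unknown, since TPM keeps no read counts.

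Combination against butyrate asks what propionate adds to butyrate, and neither group had entered the choice of Jun. On the log2 scale of the fit 8 of 9 tested members lay above butyrate and Atf3 lay at about 0, while Jun and Atf3 lay below butyrate after median-of-ratios scaling, which scales the libraries so that the typical gene is level. The median log2 fold change was 0.64 against 0.30 over all genes, 18.4% of which lay below 0, and that of all genes was 0.02 after the scaling. Junb averaged 20.2 ± 11.7 TPM in the combination group and 10.8 ± 6.00 TPM with butyrate (SD, n = 6 each). Its log2 fold change was 0.79 ± 0.44 (SE), with 28 of 36 pairs higher and an adjusted p of 0.340 (limma). Ier2 averaged 15.6 ± 8.77 TPM in the combination group and 8.63 ± 3.66 TPM with butyrate, with a log2 fold change of 0.71 ± 0.35 and an adjusted p of 0.322. Jund was at 0.75 ± 0.43 and Fos at 0.72 ± 0.51. Jun was at 0.17 ± 0.21 (adjusted p = 0.593) with a 95% interval of -0.27 to 0.61, and at -0.17 after that scaling. Atf3 was at 0.01, with an interval of -1.44 to 1.45, and at -0.29 after it. Its mean was lower in the combination group, at 11.4 TPM, than with butyrate, at 21.5 TPM, where butyrate replicate 6 held 96.6 TPM. Its fitted value was below 0 in 6 of 12 fits that left out a library.

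No member passed in this comparison: 0 of 9 had an adjusted p under 0.05 in limma, where 0% of all genes passed, and 0 of 9 an unadjusted p under 0.05, where 14.6% of genes were higher and 0.93% lower. The groups overlapped for each of the 9, and 0.686% of all genes were higher and 0.0528% lower without overlap. Without combination replicate 5, the median over the 9 genes was 0.53 and 0 of 9 passed.

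Combination against propionate asks what butyrate adds to propionate. Of the 8 members tested here, 7 lay above propionate on the log2 scale of the fit, where 23.1% of all genes lay below it. Of these, Atf3 and Fosl2 were at about 0 under quantile normalization. Their mean TPM did not lie above, with 11.4 TPM in the combination group and 11.6 TPM with propionate for Atf3, and 10.8 and 10.9 TPM for Fosl2. Ier2 averaged 15.6 ± 8.77 TPM in the combination group and 8.79 ± 4.77 TPM with propionate (SD, n = 6 each), a log2 fold change of 0.72 ± 0.35 (SE) with 30 of 36 pairs higher (limma, adjusted p = 0.564). Egr1 was at 0.76 ± 0.50 and Junb at 0.73 ± 0.44. Fosb was at -0.11 ± 0.36. By limma, 0 of 8 reached an adjusted p under 0.05 (0% of all genes), and 1, Ier2, an unadjusted p under 0.05, where 8.43% of genes were higher and 0.429% lower (8.86% in all). The count at an unadjusted p under 0.05 was 0 without combination replicate 5 (3.86% of genes higher). It was likewise 0 without combination replicate 2, 3 or 4, or without propionate replicate 1, 2, 5 or 6. Without propionate replicate 3 it was 3 (18.3% of genes higher), and without combination replicate 1 it was 2 (12.1%). All members overlapped, against 0.138% of genes higher and 0.0066% lower without overlap. Jun, described only, averaged 29.3 ± 8.68 TPM in the combination group and 27.9 ± 5.83 TPM with propionate.

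Butyrate against propionate sets the single acids side by side, at doses the labels do not state. Jund averaged 24.8 ± 10.9 TPM with butyrate and 38.2 ± 31.8 TPM with propionate (SD, n = 6 each), a log2 fold change of -0.34 with a 95% interval of -1.23 to 0.56. Fosb was at -0.39 (-1.12 to 0.35), Fos at -0.14 (-1.19 to 0.92) and Atf3 at 0.25 (-1.20 to 1.69). In limma 0 of 8 members had an adjusted p under 0.05 (0% of all genes) or an unadjusted one, where 0.165% of genes were higher and 0.541% lower. All members overlapped, and 0.0264% of genes were higher and 0.0462% lower without overlap. Intervals this wide leave room for differences of either sign, so the test does not show that the acids act alike on these genes.

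Butyrate against control asks what butyrate alone did. It shares its control libraries with the contrast that picked Jun. All 8 members tested lay below control, as did 78.8% of all genes. The tested members of the Fos family and Jund had the lowest values of the 8. Jund averaged 24.8 ± 10.9 TPM with butyrate and 71.5 ± 29.1 TPM in control (SD, n = 6 each), a log2 fold change of -1.46 ± 0.43 (SE) with 3 of 36 pairs higher. Fos averaged 7.23 ± 5.22 TPM with butyrate and 27.0 ± 33.5 TPM in control, at -1.46 ± 0.51, and at -1.0 without control replicate 5. Fosl2 was at -1.41 ± 0.52 and Fosb at -1.18 ± 0.36. These 4 genes had an adjusted p of 0.115 (limma), the smallest of all genes in this comparison. Genes of unlike unadjusted p share that value, here from 0.0027 for Jund to 0.012 for Fosl2, so it does not set them apart. Egr1 at -0.99 ± 0.50, Junb at -0.74 ± 0.44, Ier2 at -0.68 ± 0.35 and Atf3 at -0.52 ± 0.70 had adjusted p values of 0.149 to 0.577. Atf3 ranged from -1.15 without butyrate replicate 6 to -0.09 without control replicate 3, and was at -0.06 under quantile normalization.

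Of the 8, 0 had an adjusted p under 0.05 in limma (0% of all genes), and 4 were lower at an unadjusted p under 0.05, against 35.1% of all genes lower and 1.19% higher. All members overlapped, and 1.82% of genes were lower and 0.066% higher without overlap. The median of all genes was -0.38 in this comparison and 0.01 with median-of-ratios scaling, where Jund was at -0.99, Fos at -1.04, Fosl2 at -0.98 and Fosb at -0.94. With the muscle and mesothelium marker scores as covariates the same 4 genes were at -0.72, -0.96, -0.49 and -0.62. The median of all genes in that fit was -0.13. There 3 of 8 members were lower at an unadjusted p under 0.05 in limma, against 19.8% of all genes lower and 1.46% higher. Without control replicate 3, the control library with the lowest mesothelium sum, 5 of 8 passed, all lower, as did 37.3% of all genes. Jun, described only, averaged 25.6 ± 6.98 TPM with butyrate and 46.8 ± 13.5 TPM in control.

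Combination against control asks what both acids did together, with the same control libraries. Fosb averaged 1.01 ± 0.66 TPM in the combination group and 2.97 ± 1.74 TPM in control (SD, n = 6 each), a log2 fold change of -0.90 ± 0.36 (SE) with an adjusted p of 0.382 (limma). Fosl2 was at -0.92 ± 0.52 and Jund at -0.71 ± 0.43. Fos was at -0.74 ± 0.51, and at -0.28 without control replicate 5. Junb and Ier2 were near control, at 0.05 ± 0.44 and 0.03 ± 0.35. They averaged 20.2 and 15.6 TPM in the combination group and 17.8 and 14.0 TPM in control. Both lay below control, as did 8 of 8 members, without combination replicate 2, 3 or 5 or without control replicate 3. The median of all genes was -0.11 to -0.19 in those fits. In limma 0 of 8 passed (0% of all genes), and 1, Fosb, was lower at an unadjusted p under 0.05, against 4.1% of all genes lower and 6.2% higher. Without control replicate 5 that count was 0 (1.83% of genes lower, 5.25% higher). It was 3 after median-of-ratios scaling (7% of genes lower, 9.76% higher) and 3 with quantile normalization (7.58% lower, 10% higher). Without control replicate 3 it was also 3 (14.3% lower, 6.13% higher). All members overlapped, and 0.633% of genes were higher and 0.112% lower without overlap. Jun, described only, averaged 29.3 ± 8.68 TPM in the combination group and 46.8 ± 13.5 TPM in control.

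**Figure D5:**
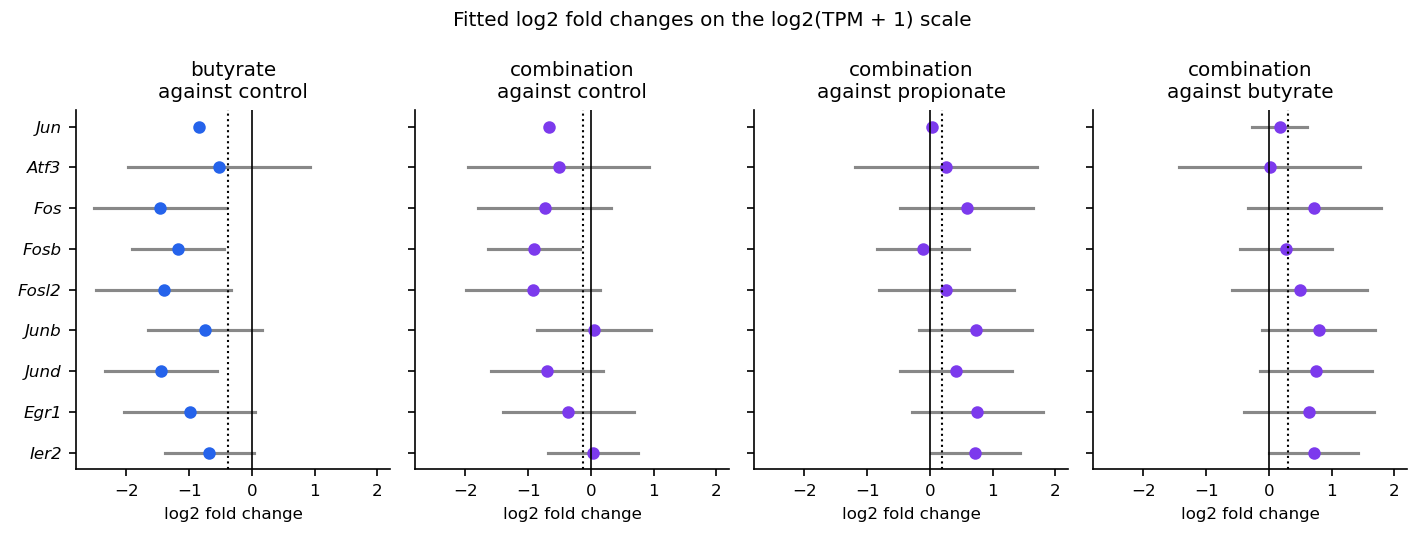
Log2 fold changes of the 9 tested members (points) with 95% intervals from limma (lines), on the log2(TPM + 1) scale, in 4 comparisons of 6 libraries each. The solid line marks 0 and the dotted line the median of all 15163 genes. Members lay to the left of 0 with butyrate against control (Jund -1.46, Fos -1.46) and to the right with combination against butyrate (Junb 0.79), with Atf3 at 0.01, where Jun and Atf3 moved to the left after median-of-ratios scaling. Jun has no interval where it is described without a test.

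Propionate against control is the comparison that chose Jun, and its values are given as a description. Jun averaged 27.9 ± 5.83 TPM with propionate and 46.8 ± 13.5 TPM in control (SD, n = 6 each), a log2 fold change of -0.71, and of -0.69 with the identical rows counted once. All 9 tested members lay below control, as did 79.3% of all genes, with a median of -0.79 against -0.30 over all genes. Fos was at -1.33, Fosl2 at -1.18, Jund at -1.12 and Egr1 at -1.12, while Junb was at -0.68. Without control replicate 5 Fos was at -0.86. With the marker scores as covariates Fos was at -0.91, Fosl2 at -0.40, Jund at -0.51, Egr1 at -0.52 and Junb at -0.14. The median of all genes in that fit was -0.09. Over all genes 0% passed after adjustment and 9.13% were lower at an unadjusted p under 0.05 (9.57% in either direction). All members overlapped, and 0.0132% of genes were higher and 0.0264% lower without overlap. With propionate replicates 3 and 4 high for Jund, Fosl2 and Fosb, their propionate group spanned nearly the range of control.

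The interaction asks whether the effect of one acid depended on the other, as the log2 difference of combination and propionate less that of butyrate and control. It holds the contrast of propionate with control that picked Jun, with the sign reversed, so lower values with propionate raise it. Its tests are therefore not independent of that choice. The interaction was above 0 for all 8 members tested, while 16.3% of all genes lay below 0. On the log2 scale it was 2.05 ± 0.72 (SE) for Fos, 1.87 ± 0.61 for Jund, 1.75 ± 0.71 for Egr1 and 1.40 ± 0.49 for Ier2. By limma, 0 of 8 reached an adjusted p under 0.05 (0% of all genes), with values of 0.128 to 0.518. The value of 0.128 was the smallest of all genes. At an unadjusted p under 0.05, 7 of 8 were higher, against 34.8% of all genes higher and 0.95% lower, and the median of all genes was 0.62. That count was 3 after median-of-ratios scaling (9.35% of genes higher, 9.08% lower, median of all genes 0.03) and 4 with quantile normalization (8.78% higher, 9.1% lower). It was 4 with the marker scores as covariates (20.9% higher, 0.356% lower) and 4 without butyrate replicate 1 (23% higher, 0.567% lower). After median-of-ratios scaling Fos was at 1.41, Jund at 1.17, Egr1 at 1.12 and Ier2 at 0.75. Without propionate replicate 3, 7 of 8 passed, as did 37.1% of all genes.

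Genes around the members were followed as lists chosen with earlier results of these data known. None passed after adjustment in the 6 comparisons of groups, where 0% of all genes did. In combination against butyrate the smallest adjusted p of all genes was 0.317 (limma). Of all genes, 18.4% lay below 0 in combination against butyrate, 23.1% in combination against propionate and 78.8% in butyrate against control. Other immediate early genes, 24 of 25 tested, had a median log2 fold change of 0.51 in the combination group against butyrate (all genes 0.30), and 22 of 24 lay above 0. Klf2, a flow-responsive factor of endothelium and T cells, averaged 25.2 ± 18.6 TPM in the combination group and 11.5 ± 2.56 TPM with butyrate (SD, n = 6 each), a log2 fold change of 0.88 ± 0.26 (SE) with an adjusted p of 0.317 (limma). Zfp36, which destabilizes cytokine mRNA, was at 0.84 ± 0.30 and Klf4 at 0.54 ± 0.24. Without combination replicate 5 the median of the list was 0.44. That library had 592 TPM of T cell markers and the highest endothelium marker sum of its group, 255 TPM. Its part in the values of Klf2 and Zfp36 was not tested. With butyrate against control, 23 of 24 lay below 0 at a median of -0.64 (all genes -0.38), and Trib1 and Sik1 were at -1.10 ± 0.35 and -1.12 ± 0.40.

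Basic leucine zipper partners, 13 genes, had a median of 0.36 in the combination group against butyrate. Batf, a partner of Jun proteins in lymphocytes and dendritic cells, averaged 5.46 ± 4.60 TPM in the combination group and 1.68 ± 0.65 TPM with butyrate (SD, n = 6 each). Its groups did not overlap, as for 0.686% of all genes, and its log2 fold change was 1.09 ± 0.32 (SE, limma adjusted p = 0.317). T cell markers summed to at most 592 TPM in the combination group and 15.8 TPM with butyrate, and their part in this difference was not tested. Batf3, a dendritic cell factor, was at 0.55 ± 0.27. With butyrate against control, 11 of 13 lay below 0 (78.8% of all genes), among them Atf4 at -0.36 ± 0.12 and Mafk at -1.02 ± 0.34.

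Upstream kinases and factors, 19 of 20 tested, had medians close to those of all genes. In the combination group against butyrate all 19 lay above 0 at a median of 0.27, and Elk3, a partner of serum response factor, was at 0.54 ± 0.23 (SE). With butyrate against control all 19 lay below 0 at a median of -0.35, where 78.8% of all genes lay below 0. Map2k1, which encodes the MAPK kinase MEK1, was at -0.37 ± 0.13 with all butyrate libraries below all control libraries, as for 1.82% of all genes.

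Damping genes, 12 phosphatases, co-repressors and other inhibitors, had a median of 0.58 in the combination group against butyrate. The MAPK phosphatase gene Dusp10 ran the other way at -0.54 ± 0.19 (SE), with 12.4 ± 3.15 TPM in the combination group and 18.7 ± 5.65 TPM with butyrate (SD, n = 6 each; limma adjusted p = 0.317). Dusp5, a nuclear MAPK phosphatase gene, and Nab2, a co-repressor of Egr1, were at -1.51 ± 0.52 and -1.49 ± 0.54 with butyrate against control.

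Genes known as AP-1 targets, 19 of 24 tested, had a median of 0.56 in the combination group against butyrate and 0.68 against propionate, with 15 and 16 above 0. Fst, the activin antagonist follistatin, averaged 12.7 ± 2.75 TPM in the combination group, 7.82 ± 1.62 TPM with propionate, 8.14 ± 2.15 TPM with butyrate and 7.395 ± 1.70 TPM in control (SD, n = 6 each). Its log2 fold change was 0.59 ± 0.18 against butyrate (SE, limma adjusted p = 0.317), 0.63 ± 0.18 against propionate and 0.71 ± 0.18 against control. Hmox1, the stress-induced heme oxygenase gene, was at 1.28 ± 0.41 and the plasminogen activator gene Plau at 0.43 ± 0.16 against butyrate. With butyrate against control the median was -0.63, with the adhesion receptor gene Cd44 at -1.16 ± 0.47.

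By deviation from the group mean over 24 libraries, the 5 genes most like Jun among 15154 were Hbegf (rho 0.87), the growth factor gene, Srxn1 (0.86), which encodes the antioxidant sulfiredoxin, Vdac2 (0.84), Enah (0.84) and Hspb1 (0.83), a small heat shock protein gene. Atf3 held rank 7 of 15162 for Jun. Among those most like Fos were Zfp967 (0.82), Gfod1 (0.81), Lrp12 (0.76) and Apold1 (0.75), an endothelial immediate early gene. Egr1 and Ier2, at ranks 1 and 2 of 15162, were nearer to Fos than any of these.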

How the data were processed

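RNA was sequenced as stranded mRNA libraries, per the labels' protocols. The authors deposited one table of TPM per transcript with 149132 rows, and fastp, HISAT2, StringTie and the build mm39 are named in the submitters' processing notes. Neither versions nor settings nor the annotation are stated there. TPM was summed by gene name, and 1001 rows without a name (0.174 to 0.470% of a library) were left out. Genes that reached 1 TPM in 6 or more libraries were analysed as log2(TPM + 1), a scale that understates changes of low genes. All 24 libraries entered one limma 3.58.1 model in R 4.3.3 (intensity trend, robust), with two-sided p-values adjusted by Benjamini-Hochberg over 15163 genes at a threshold of 0.05. The script was tested on simulated data.

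The members and lists were chosen with earlier results of these data known. All members are named. From each other list come up to 3 genes of smallest p in combination against butyrate and up to 2 elsewhere, and the likeness rule took 5 genes each for Jun and Fos. Some genes that these rules name are not reported here. Alternatives were a pseudocount of 0.1, other filters, scalings and moderation, weights, skeletal muscle and mesothelium scores as covariates, replicate blocks, only the compared groups, and leaving out each library. Counting identical rows once, the searches for TGACGT and TTACCTCA, and leaving combination replicate 5 out of the lists were added after seeing the data.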

Additional observations from a re-analysis of the deposited data

Results flagged for a closer look

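In groups of 6, the gap in TPM of the most extreme library to its neighbour was compared with Dixon's critical value. This was done for 40 combinations of a member and a group, and 6 exceeded it, each with a high library. For normally distributed values about 1 in 20 would exceed it. TPM need not be so distributed and the rate over all genes was not computed, so the 6 cannot be read as an excess. Fos in control replicate 5 was at 95.2 TPM, with the next control library at 16.2. Fos in propionate replicate 3 was at 19.5 TPM, with the next at 8.76. Atf3 in butyrate replicate 6 was at 96.6 TPM, with the next at 10.6, and Jun in the same library was at 39.2 TPM, with the next at 25.9. Atf3 in propionate replicate 4 was at 36.9 TPM, with the next at 11.7. Fosl1 in combination replicate 2 was at 2.19 TPM, with the next at 0.37.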

How the results depend on the processing

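Propionate against control carries no test and is left out of these counts. In the other 6 comparisons no member passed under other pseudocounts, filters, scalings, moderation, covariates or identical rows counted once, nor, outside the interaction, with only the compared groups. Weights per library gave 4 of 8 passing in combination against propionate (33.1% of all genes), 7 in butyrate against control (67.6%), 3 in combination against control (38.2%) and 7 in the interaction (72.4%). Weights were 0.127 for propionate replicate 3 and 6.76 for propionate replicate 5. With the library number as a replicate block, 6 passed in butyrate against control (52.1%) and 4 in the interaction (35.8%), and with the title number none did. The labels do not state that either number pairs the samples. Of the title pairs 16 of 36 and of the library pairs 18 of 27 had a correlation over 0.1. In turn, 3 and 2 of 24 libraries were closest to their own number. Libraries also differed in tissue makeup, so these correlations cannot decide whether samples were paired. Leaving out a library gave 0 to 5 in butyrate against control and 0 to 7 in the interaction. The causes were not tested.

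Signs changed mostly for values near 0. Over all alternatives, 68 values of single members changed sign, Jun included and none of them in propionate against control. In combination against butyrate, Atf3 was at -0.29 and Jun at -0.17 after median-of-ratios scaling. Quantile normalization gave -0.32 for Atf3 and -0.17 for Jun, and Atf3 ran from -0.23 to 0.64 without a library. In combination against propionate, Jun was at -0.20 with median-of-ratios and -0.17 with quantile normalization, where Atf3 was at -0.00031 and Fosl2 at -0.0012. There Fosl2 was at -0.11 with the library-number block and Fosb at 0.20 with weights. Without a library Fosb ran from -0.24 to 0.15 and Jun from -0.081 to 0.19. In butyrate against propionate, Junb was at 0.029 after median-of-ratios scaling, 0.038 under quantile normalization, 0.052 with tissue covariates and 0.11 with weights. There Jun was at 0.0069 with quantile normalization, and Egr1 at -0.38 and Ier2 at -0.24 with the library-number block. Weights gave Fosl2 0.21, Jund 0.18 and Ier2 -0.0036. Without a library, Atf3 ran from -0.38 to 0.65, Egr1 from -0.12 to 0.44, Fos from -0.37 to 0.15, Fosl2 from -0.46 to 0.12, Ier2 from -0.13 to 0.20 and Junb from -0.27 to 0.21. In combination against control, weights gave Atf3 0.25, Ier2 -0.14 and Junb -0.19, the library-number block Ier2 -0.057 and Junb -0.069, and tissue covariates Egr1 0.082. Without a library Ier2 ran from -0.19 to 0.22 and Junb from -0.17 to 0.30. TPM keeps no read counts, so counting error is unknown.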
